A study of Homo sapiens with 21 samples.

Results

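The 47 genes described here encode proteins that license and fire replication origins, load and drive the replication fork, supply its nucleotides and chromatin factors, or control entry into S phase. They were chosen by symbol from a list of replication genes. All 47 were among the 28008 genes of both deposited count tables, and all 47 passed the low-count filter in each fit. Messenger RNA was counted in 21 libraries of human leukaemia cell lines, in 7 groups of 3 libraries. OCI-AML3 is an acute myeloid leukaemia line, labelled myeloid. It gave a parental group (genotype WT, treatment N/A), a vehicle group (genotype WT, treatment DMSO) and groups of cells labelled resistant (genotype Res, treatment StAMP). K562 is a line from a chronic myeloid leukaemia, labelled erythroleukemia, and gave a parental group (genotype WT, treatment N/A). Sequencing batch 1 held OCI-AML3 parental, vehicle, resistant 1 and K562 parental libraries. Sequencing batch 2 held vehicle, resistant 1 and resistant 2 libraries, where the numbers follow the biological replicates of resistant cells in the labels. StAMP is not spelled out in the labels, and the title of the series speaks of stapled peptides. The sources used here do not give dose, time, culture conditions, the way resistant cells were selected, or whether each resistant replicate is 1 clone. The labels do not say that the 3 libraries of a group came from separate cultures, so each p-value measures only the spread between these libraries.

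Replication starts in G1, when the origin recognition complex, CDC6 and CDT1 load the MCM2-7 helicase onto DNA in inactive form. In S phase, CDC45 and the GINS complex join MCM2-7 to make the active helicase. Polymerase alpha and primase begin each strand, RFC loads the PCNA clamp, and polymerases delta and epsilon extend the strands. RPA coats the exposed single strands, FEN1 and LIG1 join the lagging-strand pieces, and ribonucleotide reductase and thymidylate synthase supply deoxynucleotides. Transcription of many of these genes peaks around the G1/S transition under E2F factors, whose release from RB proteins follows the action of cyclin E and CDK2. In fast-dividing leukaemia lines the whole set is transcribed.

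The libraries stood apart from each other in ways that touch every comparison below. Batch 1 libraries held 14.1 to 21.1 M (mega counts) in total, and batch 2 libraries 30.7 to 51.3 M. Marker genes did not follow the line named in the labels of the resistant groups. The summed level of 13 erythroid markers was 10.3 to 12.9 CPM in OCI-AML3 parental and 12.8 to 14.0 CPM in vehicle libraries of batch 1. CPM are counts divided by the TMM-scaled library size in M. The same sum was 4746 to 5066 CPM in resistant 1 and 4673 to 4798 CPM in K562 libraries of that batch. In batch 2 it was 5.03 to 7.21 CPM in vehicle, 1602 to 1725 CPM in resistant 1 and 952 to 1458 CPM in resistant 2 libraries. The sum of 14 myeloid and monocyte markers was 4383 to 4501 CPM in OCI-AML3 parental and 4388 to 4573 CPM in vehicle libraries of batch 1. It was 84.4 to 85.7 CPM in resistant 1 and 43.0 to 45.4 CPM in K562 libraries. In batch 2 it was 3338 to 3469 CPM in vehicle, 164 to 192 CPM in resistant 1 and 129 to 140.1 CPM in resistant 2 libraries. All 13 erythroid markers were called higher, and all 14 myeloid markers lower, in each comparison of a resistant with a vehicle group. A list of 7 fibroblast and epithelial markers summed to 0.895 to 1.43 CPM in vehicle and 411 to 444 CPM in resistant 1 libraries of batch 1, and to 536 to 549 CPM in K562. The 6 lymphocyte markers summed to at most 18.0 CPM in every library. Line identity and resistance therefore cannot be told apart for any resistant against vehicle difference below, and "resistant" is used as the labels use it.

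Promoter sequence is shown first, because the letters searched were found in members that rose as well as in members that fell. RefSeq promoter windows of GRCh38.p14, from 250 bases before to 50 after each start, were matched by symbol for 40 of the 47 genes. The letters TTTCCCGC, TTTGGCGC, TTTCGCGC and TTTGCCGC, which fit the E2F consensus, were searched on both strands, where matches may overlap. At least 1 match was present in 21 of 40 members (52.5%) and in 1090 of the 27305 genes of the whole table (3.99%). They were present in 4 of the 11 matched members called higher in each of the 3 resistant against vehicle comparisons (36.4%). They were present in 5 of the 6 matched members called lower in each (83.3%) and in 12 of the other 23 (52.2%), a difference given with no test. Some genes had more than 1 window, and by window the counts were 4 of 14 (28.6%), 6 of 10 (60.0%) and 12 of 28 (42.9%). Other forms of the E2F site were not searched, so a gene without a match may still hold one. CCAAT, on either strand, was present in 24 of 40 members (60.0%) and 39.7% of all genes. The lines below give the 100 bases before the start, 5′ to 3′ along the gene, with E2F letters in capitals. They show members that were higher in resistant libraries with the letters (E2F2, POLE) and without them (CHAF1B), members that were lower with them (MCM6, UHRF1, PCNA), and E2F1, whose change differed between batches.
E2F2 (chr1:23531234-23531333, minus strand): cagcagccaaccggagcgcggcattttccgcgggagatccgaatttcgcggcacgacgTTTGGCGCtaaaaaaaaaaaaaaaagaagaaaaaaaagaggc
POLE (chr12:132687343-132687442, minus strand): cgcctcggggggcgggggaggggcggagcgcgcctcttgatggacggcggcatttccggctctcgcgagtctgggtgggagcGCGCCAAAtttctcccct
CHAF1B (chr21:36385292-36385391, plus strand): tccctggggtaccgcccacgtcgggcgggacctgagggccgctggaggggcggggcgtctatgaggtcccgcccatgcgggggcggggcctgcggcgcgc
MCM6 (chr2:135876444-135876543, minus strand): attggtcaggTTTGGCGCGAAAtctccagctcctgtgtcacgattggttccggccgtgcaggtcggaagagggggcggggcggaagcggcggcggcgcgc
UHRF1 (chr19:4909401-4909500, plus strand): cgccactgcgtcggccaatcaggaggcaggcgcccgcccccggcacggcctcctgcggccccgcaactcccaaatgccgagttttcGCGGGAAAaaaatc
PCNA (chr20:5126623-5126722, minus strand): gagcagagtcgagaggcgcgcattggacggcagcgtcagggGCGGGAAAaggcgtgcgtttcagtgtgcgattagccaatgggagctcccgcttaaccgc
E2F1 (chr20:33686386-33686485, minus strand): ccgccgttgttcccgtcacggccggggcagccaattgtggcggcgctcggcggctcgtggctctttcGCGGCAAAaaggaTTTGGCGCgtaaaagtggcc
In E2F2, which encodes an E2F factor, the letters TTTGGCGC begin at position -42 from the start. In MCM6, TTTGGCGC and TTTCGCGC (the latter on the other strand) overlap. POLE carries TTTGGCGC on the other strand at -18, PCNA carries TTTCCCGC on the other strand at -59, and UHRF1 carries TTTCCCGC on the other strand at -14. E2F1 holds 2 matches within this stretch. The RefSeq start used for UHRF1 lies inside the wider GENCODE span of the gene given below. UHRF1 and PCNA also have other RefSeq starts, and the 100 bases before those held no match. Another UHRF1 window held 1 match outside that stretch. A match is a description of letters and not of binding.

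Most of the 47 genes differed between resistant and vehicle libraries, in both directions. E2F2, CDC45, RFC4, RFC5 and CHAF1B were among those that rose in every comparison of a resistant with a vehicle group, and UNG, UHRF1, MCM6, MCM2 and RPA1 among those that fell. In resistant 1 of batch 1, 25 members rose and 14 fell at adjusted p under 0.05 (edgeR quasi-likelihood test, Benjamini-Hochberg over 14505 genes, 2-sided). Over all genes of that comparison 86.0% were called, 44.0% higher and 42.1% lower. The median absolute log2 fold change was 0.47 over the members and 0.85 over all genes tested. A called change of at least 1 on the log2 scale in either direction was found for 8 members, all higher, and for 44.5% of all genes. The libraries of the groups did not overlap for 41 members and for 86.7% of all genes. In batch 2, 16 members rose and 10 fell in resistant 1 (75.7% of 15218 genes called, 39.9% higher and 35.8% lower). With the replicate number as a block, 19 rose and 12 fell in resistant 1 of batch 2, 5 more than without it. In resistant 2, 15 rose and 12 fell (76.1% called, 40.2% higher and 35.9% lower). Changes of at least 1 were called for 11 members in resistant 1 (47.9% of all genes) and 8 in resistant 2 (48.2%). In each of the 3 comparisons the share of members called was below that of all genes. Libraries did not overlap for 27 members in resistant 1 (79.6% of all genes) and 24 in resistant 2 (78.4%). The median absolute log2 fold change of members was 0.45 in resistant 1 and 0.51 in resistant 2 of batch 2, against 0.96 and 0.97 over all genes. The median signed log2 fold change of members was 0.18, 0.14 and 0.088 in the 3 comparisons in this order, against 0.023, 0.070 and 0.073 over all genes. In bulk RNA, a changed share of cells in S phase and a changed RNA level per cell cannot be told apart.

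**Figure D1:**
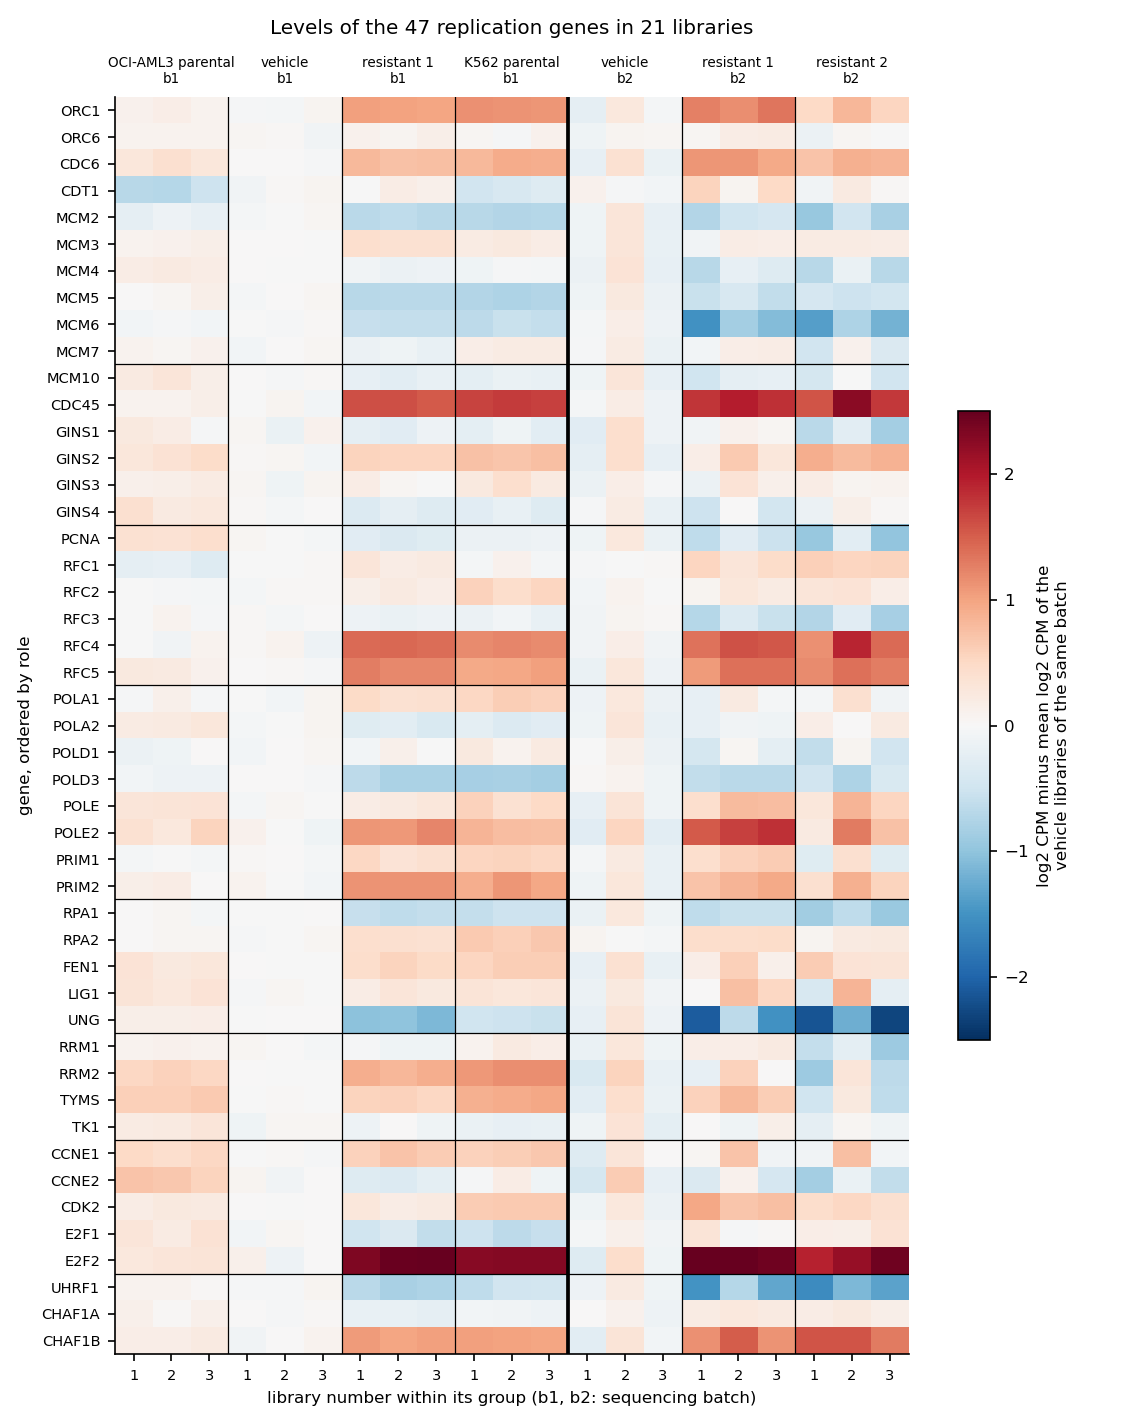
Heat map of the 47 genes (rows, ordered by role) in 21 libraries (columns), coloured by log2 CPM minus the mean log2 CPM of the 3 vehicle libraries of the same batch; values beyond 2.5 take the end colour, and b1 and b2 are the sequencing batches. E2F2 and CDC45 are the darkest rows in resistant and K562 columns, UNG and UHRF1 are blue there, and library 2 of each batch 2 group is mostly redder than its neighbours.

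Batch 2 held libraries that stood apart. Library 2 had the highest level of its group for 44 of 47 members in vehicle, 36 in resistant 2 and 29 in resistant 1. In library 2 of all 3 groups, 22 members were highest. Such counts were not made over all genes, so they are not read as particular to the members or to cell-cycle genes. The summed level of the 47 genes was 5430, 7061 and 5347 CPM in vehicle libraries 1, 2 and 3. It was 5635, 6651 and 6193 CPM in resistant 1 and 4859, 6384 and 4979 CPM in resistant 2. In batch 1 the sums stayed within 6704 to 6816 CPM in vehicle, 7010 to 7103 CPM in resistant 1, 7345 to 7432 CPM in OCI-AML3 parental and 7454 to 7627 CPM in K562 libraries. The median coefficient of variation of a member was 2.88 to 3.10% in the 4 groups of batch 1 and 10.4 to 17.3% in those of batch 2. UNG, RRM2 and LIG1 had the greatest ratios of library 2 to the other libraries of its group (means over the 3 groups of 1.87, 1.83 and 1.64). The G2 and M phase list described below was also highest in library 2 of each group. Its 20 genes summed to 2558, 2877 and 2301 CPM in vehicle, 3153, 3666 and 3405 CPM in resistant 1 and 2537, 3679 and 2497 CPM in resistant 2 libraries 1, 2 and 3. What set these libraries apart was not tested, and without them 26 of the 26 members called in resistant 1 of batch 2 were still called.

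**Figure D2:**
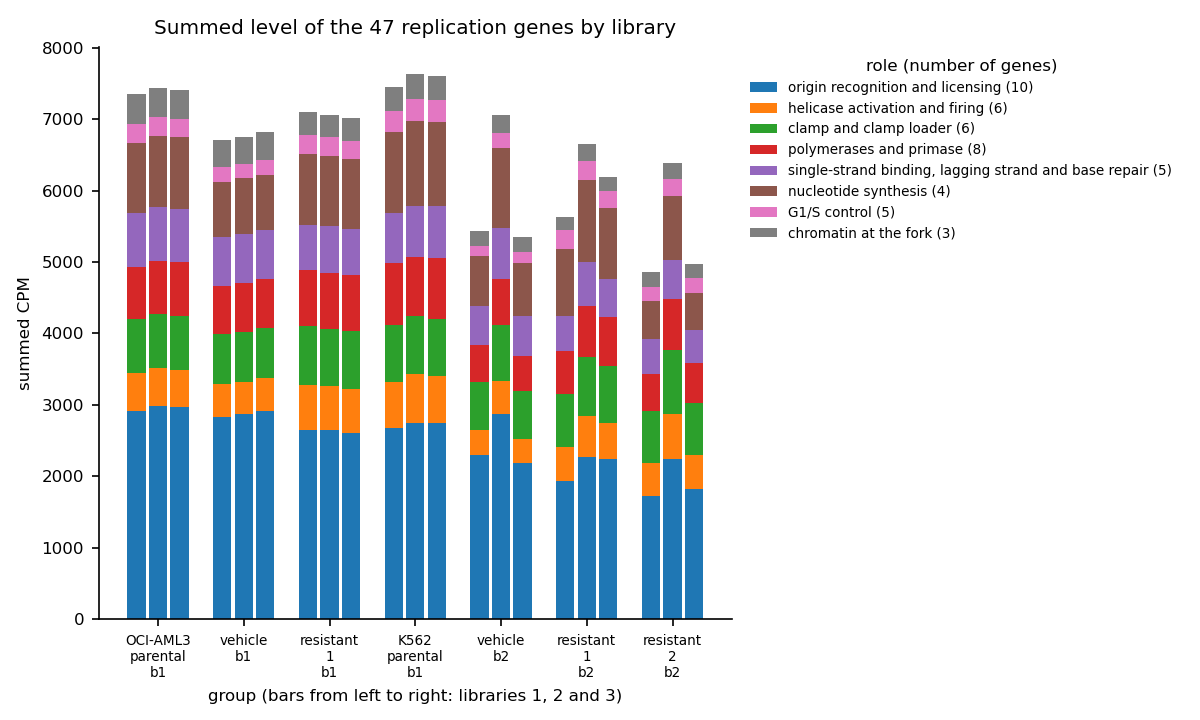
Stacked bars of summed CPM of the 47 genes in each library, coloured by role, with libraries 1, 2 and 3 of each group from left to right. Batch 1 bars differ little within a group, while the middle bar of each batch 2 group is the tallest, at 7061, 6651 and 6384 CPM.

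The direction of a member was mostly shared between comparisons. Of the 24 members called in resistant 1 against vehicle in both batches, which share no library, 24 had the same sign. The same share over all genes was not counted, so nothing particular to the members is read from this. The genes called higher in each of the 3 resistant against vehicle comparisons were ORC1, CDC6, CDC45, RFC1, RFC4, RFC5, POLE, POLE2, PRIM2, CDK2, E2F2 and CHAF1B. Those called lower in each were MCM2, MCM5, MCM6, PCNA, POLD3, RPA1, UNG and UHRF1. The comparisons of batch 2 share their vehicle libraries, so these 12 and 8 genes describe the naming and carry no test. MCM7, GINS3, POLD1 and TK1 were called in none of the 3. Some alternatives did call them. In resistant 2, MCM7 and POLD1 were called with the replicate block, without resistant 2 library 2 or without the libraries numbered 2. In batch 1, MCM7 was called without vehicle library 1 or with only the groups compared, and GINS3 without resistant 1 library 3. Of the 20 genes, 18 kept their call under each other test, scaling and filter tried and in every omission of 1 library. POLE2 in resistant 2 lost it without resistant 2 library 2 (log2 fold change 0.45) or without vehicle library 1 or 3 (0.63). PCNA in resistant 1 of batch 2 lost it without vehicle library 2 (-0.34) or without resistant 1 library 1 or 3 (-0.42 and -0.44).

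**Figure D3:**
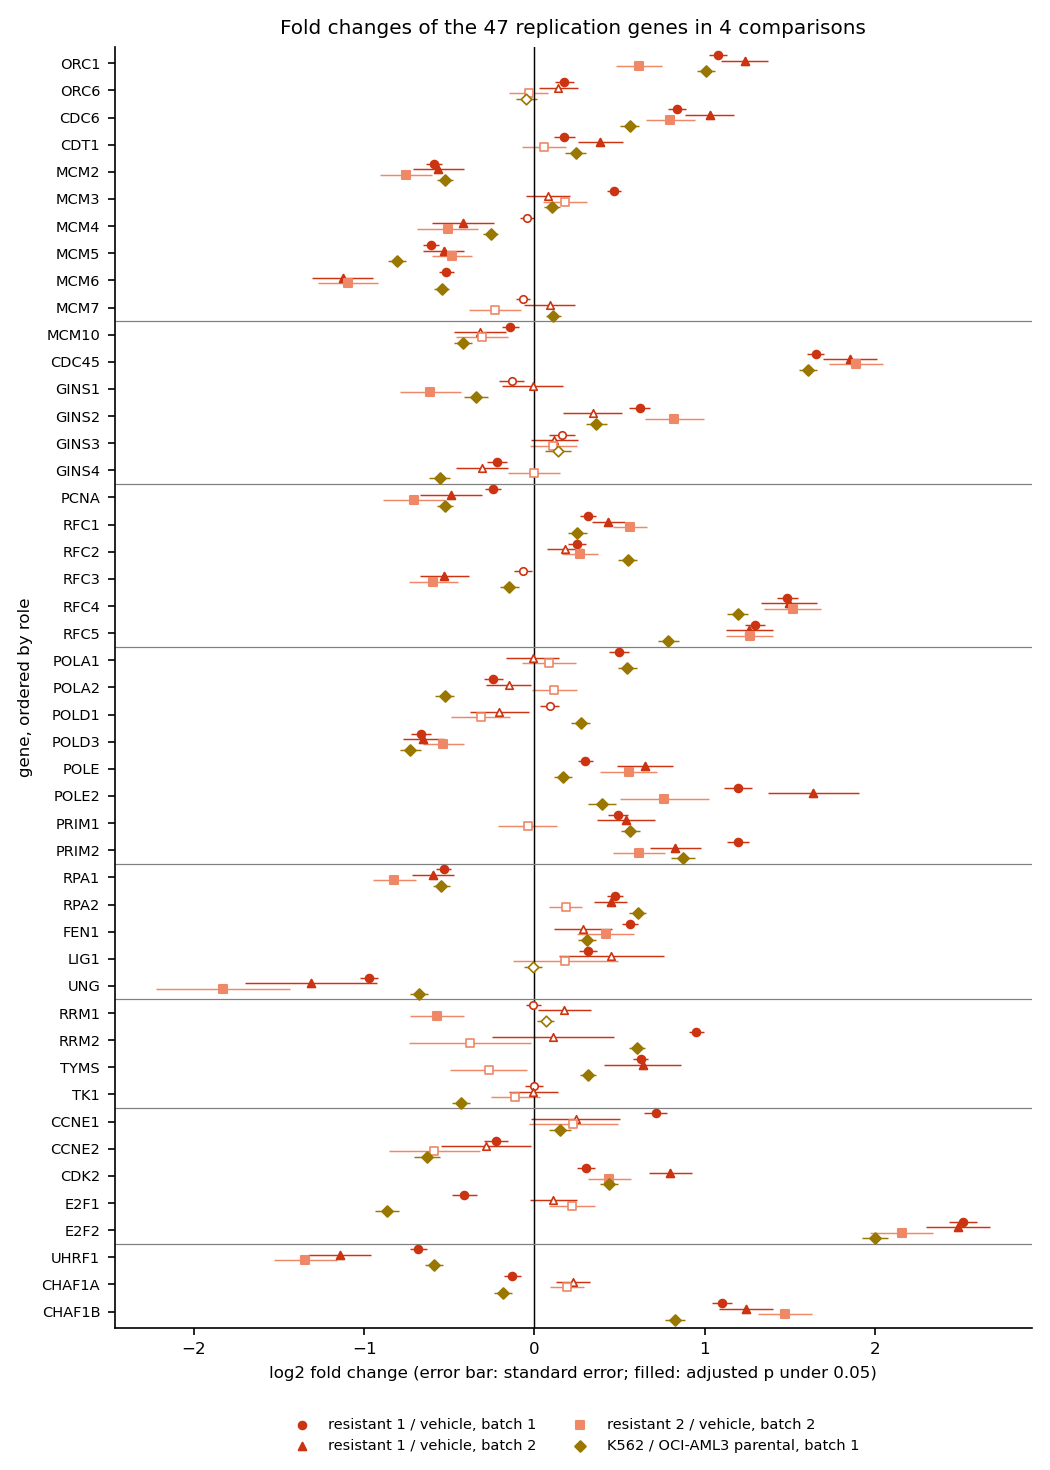
Log2 fold change with its standard error for each of the 47 genes (rows, ordered by role) in 4 comparisons, where a filled marker is called at adjusted p under 0.05. E2F2, CDC45, RFC4, RFC5 and CHAF1B lie to the right in all 4 comparisons, and UNG, UHRF1, MCM2, MCM5 and MCM6 to the left.

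The G1/S control genes held the member with the greatest change. E2F2 encodes an activator E2F, and lies at hg38 chromosome 1, 23506438 to 23531233 on the minus strand. In batch 1 it had 10.3, 8.69 and 9.63 CPM in vehicle, 48.1, 52.8 and 55.1 CPM in resistant 1 and 46.5, 46.7 and 47.01 CPM in K562 libraries. In batch 2 it had 6.61, 11.2 and 7.66 CPM in vehicle, 47.9, 50.4 and 44.5 CPM in resistant 1 and 31.4, 37.4 and 44.6 CPM in resistant 2 libraries. Every resistant library was above every vehicle library of its batch. E2F2 rose 5.73-fold in resistant 1 of batch 1 (log2 fold change 2.52 ± 0.083 SE, adjusted p = 1.09e-20), 5.62-fold in resistant 1 of batch 2 (adjusted p = 1.48e-08) and 4.47-fold in resistant 2 (adjusted p = 6.65e-08; edgeR for each). E2F1, the activator E2F most studied at G1/S, did otherwise: it had 39.0, 42.4 and 41.1 CPM in vehicle and 29.0, 31.7 and 26.6 CPM in resistant 1 of batch 1, and fell (-0.41 ± 0.072). The batch 2 libraries had 17.9, 20.2 and 17.4 CPM in vehicle and 23.0, 18.1 and 18.8 CPM in resistant 1 libraries, which overlapped (0.11 ± 0.14, not called). Its change differed between batches (difference 0.51 ± 0.15, adjusted p = 0.0146), although that call was lost without resistant 1 library 3 of batch 1. CDK2, the kinase of cyclin E, had 91.7, 90.6 and 92.3 CPM in vehicle and 112, 104 and 106 CPM in resistant 1 of batch 1, and rose (0.30 ± 0.052). Batch 2 gave 65.8, 85.7 and 64.1 CPM in vehicle, 139, 116 and 119.8 CPM in resistant 1 and 96.4, 103 and 93.6 CPM in resistant 2. CDK2 rose in both (0.80 ± 0.13 and 0.44 ± 0.13), with no overlap of libraries. The cyclin genes parted in batch 1, where CCNE1 rose (0.71 ± 0.066) and CCNE2 fell (-0.23 ± 0.069). In batch 2 CCNE2 had 31.0, 65.2 and 36.5 CPM in vehicle, 32.5, 45.1 and 31.4 CPM in resistant 1 and 23.4, 37.4 and 27.5 CPM in resistant 2. Neither cyclin gene was called there in the main edgeR fit. DESeq2 called CCNE2 lower in resistant 2 (-0.58, adjusted p = 0.0315). So did edgeR with the replicate number as a block, without vehicle library 1, without resistant 2 library 2 or without the libraries numbered 2.

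Of the 10 origin recognition and licensing genes, 5 rose and 3 fell in resistant 1 of batch 1. In batch 2, 3 rose and 4 fell in resistant 1, and 2 rose and 4 fell in resistant 2. Over all genes, 86.0%, 75.7% and 76.1% were called in these 3 comparisons, and the counts carry no test. In batch 1 those that rose were ORC1, ORC6, CDC6, CDT1 and MCM3, and those that fell were MCM2, MCM5 and MCM6. CDC6, an ATPase that recruits MCM2-7, had 84.9, 84.2 and 82.3 CPM in vehicle and 147, 139.9 and 140.4 CPM in resistant 1 libraries of batch 1. Its levels in batch 2 were 71.7, 108 and 73.9 CPM in vehicle, 179, 178 and 161 CPM in resistant 1 and 137, 154 and 151 CPM in resistant 2 libraries. Libraries did not overlap, and CDC6 rose by 0.84 ± 0.052, 1.03 ± 0.14 and 0.80 ± 0.14 (log2 fold change and SE) in the 3 comparisons. ORC1, the regulated subunit of the origin recognition complex, rose by 1.08 ± 0.053, 1.23 ± 0.14 and 0.62 ± 0.14. ORC6, a small subunit of that complex, rose by 0.18 ± 0.058 in batch 1, a call lost without vehicle library 3, and was not called in batch 2. CDT1, which delivers MCM2-7, was higher in resistant 1 of batch 1 (0.18 ± 0.059) and of batch 2 (0.39 ± 0.13). Those libraries overlapped with vehicle, at 129, 117 and 115 CPM in vehicle and 176, 127 and 171 CPM in resistant 1 of batch 2. In resistant 2 it had 113, 139.7 and 123 CPM, and the batch 1 call was lost without vehicle library 1 (0.11) or resistant 1 library 2. The CDT1 call in resistant 1 of batch 2 was lost without resistant 1 library 1 (0.30) or 3 (0.34).

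Among the MCM subunits, MCM6 (chromosome 2, 135839626 to 135876443, minus strand) had 469.9, 465 and 481 CPM in vehicle and 317, 312 and 312 CPM in resistant 1 libraries of batch 1. In the batch 2 libraries it had 594, 692 and 561 CPM in vehicle, 216, 342 and 289.8 CPM in resistant 1 and 236, 360.5 and 269 CPM in resistant 2 libraries. MCM6 fell in resistant 1 of batch 1 (log2 fold change -0.52 ± 0.042, edgeR adjusted p = 7.8e-12), in resistant 1 of batch 2 (-1.13 ± 0.18, adjusted p = 4.94e-05) and in resistant 2 (-1.09 ± 0.18, adjusted p = 6.21e-05). The batch difference of resistant 1 was itself called (edgeR interaction term, -0.63 ± 0.17, adjusted p = 0.00914). MCM2, another subunit of the ring, had 314, 321 and 336 CPM in vehicle and 202, 209 and 201 CPM in resistant 1 libraries of batch 1. In batch 2, MCM2 had 195, 257 and 182 CPM in vehicle, 125, 147 and 157 CPM in resistant 1 and 108, 149.6 and 118 CPM in resistant 2 libraries. All resistant libraries were below the vehicle libraries of their own batch, and MCM2 fell (-0.59 ± 0.046, -0.56 ± 0.15 and -0.75 ± 0.15). MCM5 had 227, 233 and 239.5 CPM in vehicle and 144, 145 and 147 CPM in resistant 1 libraries of batch 1, and 141, 136 and 141 CPM in K562. In batch 2, MCM5 had 139.9, 179 and 136 CPM in vehicle, 102, 113 and 98.4 CPM in resistant 1 and 112, 104 and 109 CPM in resistant 2. It fell in the 3 comparisons (-0.61 ± 0.048, -0.53 ± 0.12 and -0.48 ± 0.12), and without the libraries numbered 2 its value in resistant 2 was -0.32. MCM3 rose in batch 1 (0.47 ± 0.043) and was not called in batch 2, where its libraries overlapped (0.079 ± 0.13 and 0.18 ± 0.13). MCM4 fell in resistant 1 (-0.42 ± 0.18) and resistant 2 (-0.51 ± 0.18) of batch 2. Without vehicle library 2 those values were -0.22 and -0.31 and neither was called. The MCM4 call in resistant 1 was also lost with no low-count filter, or without resistant 1 library 1 or 3 or resistant 2 library 1. Its call in resistant 2 was also lost without resistant 2 library 1 or 3. MCM7 had 601, 633 and 647 CPM in vehicle and 569, 584 and 554 CPM in resistant 1 libraries of batch 1, and its difference of -0.067 ± 0.043 was not called. The MCM7 libraries of batch 2 overlapped, at 428, 501 and 387 CPM in vehicle, 417, 487 and 494 CPM in resistant 1 and 311, 469.8 and 339.8 CPM in resistant 2.

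Of the 6 helicase activation genes, 2 rose and 2 fell in resistant 1 of batch 1. In batch 2, 1 rose in resistant 1, and 2 rose and 1 fell in resistant 2. The shares of all genes called were 86.0%, 75.7% and 76.1% in this order, and the counts carry no test. CDC45 (chromosome 22, 19479457 to 19520612, plus strand), the subunit whose arrival turns the loaded MCM ring into an active helicase, was the member with the next greatest rise. It had 91.5, 97.3 and 88.7 CPM in vehicle, 281, 281 and 268 CPM in resistant 1 and 299.7, 311 and 303 CPM in K562 libraries of batch 1. For batch 2 the values were 59.5, 70.1 and 56.7 CPM in vehicle, 214, 241 and 219 CPM in resistant 1 and 183, 296 and 211 CPM in resistant 2 libraries. The lowest resistant library of batch 2 was above the highest vehicle library, and CDC45 rose 3.15-fold, 3.62-fold and 3.70-fold (edgeR adjusted p = 2.31e-21, 6.21e-08 and 5.07e-08). Its partners gave mixed results. MCM10, which helps start the fork, fell slightly in batch 1 (-0.14 ± 0.05) and was not called in batch 2. GINS2 rose in batch 1 (0.62 ± 0.063) and in resistant 2 (0.82 ± 0.17), whereas GINS1 fell in resistant 2 (-0.61 ± 0.18, and -0.36 and not called without vehicle library 2). GINS4 fell in batch 1 (-0.22 ± 0.059) and GINS3 was called in none of the 3. With the replicate number as a block, MCM10 (-0.30), GINS4 (-0.32) and GINS2 (0.35) were called in resistant 1 of batch 2 (edgeR adjusted p = 0.0181, 0.0163 and 0.0267). In resistant 2, MCM10 was called lower without vehicle library 3 (-0.40) or resistant 2 library 2 (-0.47).

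The clamp loader showed subunits of 1 complex going in opposite directions in batch 2, where RFC3 fell, whereas RFC3 was not called in batch 1. RFC4 (chromosome 3, 186789880 to 186807058, minus strand), a small ATPase subunit, had 48.6, 50.4 and 43.5 CPM in vehicle and 127, 129 and 125 CPM in resistant 1 libraries of batch 1. The levels in batch 2 were 35.7, 42.9 and 35.9 CPM in vehicle, 97.6, 114 and 111 CPM in resistant 1 and 84.2, 143 and 101 CPM in resistant 2 libraries. RFC4 rose 2.80-fold, 2.82-fold and 2.86-fold (edgeR adjusted p = 1.56e-18, 1.17e-06 and 9.91e-07), with no overlap. RFC5, another small subunit, had 47.3, 47.7 and 45.8 CPM in vehicle and 113, 108 and 108 CPM in resistant 1 libraries of batch 1. In batch 2 it had 33.9, 46.9 and 35.2 CPM in vehicle, 80.3, 98.8 and 99.2 CPM in resistant 1 and 87.1, 99.7 and 92.4 CPM in resistant 2. RFC5 rose by 1.30 ± 0.057, 1.26 ± 0.14 and 1.27 ± 0.14. RFC3, another small subunit of the loader, had 96.2, 91.8 and 95.2 CPM in vehicle and 86.6, 83.7 and 86.7 CPM in resistant 1 libraries of batch 1, which was not called (-0.065 ± 0.052). In batch 2, RFC3 had 100.2, 113 and 109 CPM in vehicle, 65.5, 84.6 and 73.0 CPM in resistant 1 and 64.5, 88.4 and 60.5 CPM in resistant 2, and fell (-0.53 ± 0.14 and -0.59 ± 0.14). RFC1, the large subunit, had 152 to 156 CPM in vehicle and 176 to 189 CPM in resistant 1 of batch 1, and 164 to 169.96, 207 to 242 and 243 to 252 CPM in vehicle, resistant 1 and resistant 2 of batch 2. It rose by 0.32 ± 0.049, 0.43 ± 0.098 and 0.56 ± 0.098. PCNA, the clamp that these proteins load, had 279, 269 and 262 CPM in vehicle and 223, 209 and 219 CPM in resistant 1 libraries of batch 1. The batch 2 libraries had 266, 339.9 and 255 CPM in vehicle, 184, 234 and 196 CPM in resistant 1 and 149, 236 and 143 CPM in resistant 2. All resistant libraries were below the vehicle libraries of their batch, and PCNA fell (-0.24 ± 0.046, -0.49 ± 0.18 and -0.71 ± 0.18).

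Of the 8 polymerase and primase genes, 5 rose and 2 fell in resistant 1 of batch 1. In batch 2, 4 rose and 1 fell in resistant 1, and 3 rose and 1 fell in resistant 2. Beside these, 86.0%, 75.7% and 76.1% of all genes were called in this order, with no test of the counts. POLE2, an accessory subunit of the leading-strand polymerase, had 21.1, 19.6 and 18.2 CPM in vehicle and 42.0, 41.3 and 45.5 CPM in resistant 1 libraries of batch 1. Batch 2 gave 10.2, 18.0 and 10.2 CPM in vehicle, 36.0, 40.3 and 43.6 CPM in resistant 1 and 14.4, 30.2 and 20.6 CPM in resistant 2 libraries. Resistant 1 was clear of vehicle in both batches, while resistant 2 overlapped with it. POLE2 rose by 1.20 ± 0.08 in batch 1, 1.64 ± 0.26 in resistant 1 of batch 2 and 0.76 ± 0.26 in resistant 2. POLE, the catalytic subunit, had 167, 178 and 172 CPM in vehicle and 195, 200.2 and 210.1 CPM in resistant 1 libraries of batch 1. In batch 2, POLE had 68.9, 99.3 and 74.6 CPM in vehicle, 107, 137 and 137 CPM in resistant 1 and 97.1, 144 and 115 CPM in resistant 2. POLE rose in each comparison (0.30 ± 0.046, 0.65 ± 0.17 and 0.55 ± 0.17). PRIM2, the large primase subunit, rose by 1.19 ± 0.065, 0.83 ± 0.15 and 0.62 ± 0.15. PRIM1, the catalytic primase subunit, rose in resistant 1 (0.49 ± 0.057 and 0.54 ± 0.17), and its value in resistant 2 was -0.04 ± 0.17. POLD3, an accessory subunit of the lagging-strand polymerase, had 74.8, 75.0 and 73.1 CPM in vehicle and 47.2, 42.8 and 43.0 CPM in resistant 1 libraries of batch 1. In batch 2, POLD3 had 72.8, 75.1 and 65.8 CPM in vehicle, 46.4, 44.8 and 44.8 CPM in resistant 1 and 51.1, 41.5 and 55.0 CPM in resistant 2. It fell in each comparison (-0.67 ± 0.059, -0.65 ± 0.12 and -0.53 ± 0.12), and its mean ratio of library 2 to the other libraries was 0.949. POLA1, the catalytic subunit of polymerase alpha, had 92.6, 88.1 and 97.5 CPM in vehicle and 129, 121 and 123 CPM in resistant 1 libraries of batch 1, and rose (0.50 ± 0.057). In batch 2 POLA1 had 102, 135 and 102 CPM in vehicle and 97.6, 131 and 108 CPM in resistant 1, which overlapped (-0.01 ± 0.16).

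Of the 5 genes for single-strand binding, lagging-strand joining and base repair, 3 rose and 2 fell in batch 1. In each comparison of batch 2, 1 rose and 2 fell. Of all genes, 86.0% were called in batch 1, and 75.7% in resistant 1 and 76.1% in resistant 2 of batch 2. The counts carry no test. UNG (chromosome 12, 109097597 to 109126725, plus strand), which removes uracil from DNA, had 108, 109 and 109.9 CPM in vehicle, 53.9, 54.2 and 49.9 CPM in resistant 1 and 77.1, 76.6 and 74.4 CPM in K562 libraries of batch 1. Its levels in batch 2 were 83.9, 122 and 89.0 CPM in vehicle, 22.9, 61.6 and 34.0 CPM in resistant 1 and 21.6, 41.8 and 19.7 CPM in resistant 2 libraries. Every resistant library was lower than every vehicle library, and the spread within batch 2 was wide. UNG changed by -0.97 ± 0.053 in batch 1 (edgeR adjusted p = 1.47e-15), -1.31 ± 0.39 in resistant 1 of batch 2 (adjusted p = 0.0114) and -1.83 ± 0.39 in resistant 2 (adjusted p = 0.0019). RPA1, the large subunit of the single-strand binding complex, had 252, 252 and 253 CPM in vehicle and 168, 162 and 166 CPM in resistant 1 libraries of batch 1. In batch 2, RPA1 had 207, 278 and 216 CPM in vehicle, 149, 157 and 157 CPM in resistant 1 and 126, 148 and 122 CPM in resistant 2. RPA1 fell in each comparison (-0.53 ± 0.045, -0.60 ± 0.13 and -0.82 ± 0.13). RPA2, the middle subunit of the same complex, rose in resistant 1 (0.47 ± 0.049 and 0.45 ± 0.097) and was not called in resistant 2 (0.18 ± 0.097). FEN1, the flap endonuclease, rose in batch 1 (0.56 ± 0.048) and in resistant 2 (0.42 ± 0.17). The FEN1 call in resistant 2 was lost without vehicle library 1 (0.33) or 3 (0.33) or resistant 2 library 1 (0.31), and its value was 0.65 without vehicle library 2. In resistant 1 of batch 2 FEN1 was not called (0.29 ± 0.17), but was without vehicle library 2 (0.52). LIG1, the ligase of the lagging strand, rose in batch 1 (0.32 ± 0.053) and was not called in batch 2. With the replicate number as a block, LIG1 was called in resistant 1 of batch 2 (0.43, edgeR adjusted p = 0.02).

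The 3 chromatin factors also went separate ways. CHAF1B (chromosome 21, 36385392 to 36419015, plus strand), a subunit of the assembly factor that places histones behind the fork, had 35.2, 37.8 and 39.7 CPM in vehicle and 78.4, 74.8 and 76.3 CPM in resistant 1 libraries of batch 1. In the batch 2 libraries it had 23.4, 35.0 and 26.9 CPM in vehicle, 61.7, 79.7 and 60.8 CPM in resistant 1 and 83.4, 84.0 and 69.3 CPM in resistant 2 libraries. No libraries overlapped, and CHAF1B rose by 1.10 ± 0.061, 1.24 ± 0.16 and 1.47 ± 0.16. CHAF1A, its larger partner, had 135, 132 and 137 CPM in vehicle and 118, 118 and 115 CPM in resistant 1 libraries of batch 1, a small fall (-0.13 ± 0.05) whose call was lost without resistant 1 library 3. In batch 2, CHAF1A had 67.3 to 78.9 CPM in vehicle, 84.8 to 87.6 CPM in resistant 1 and 81.0 to 86.9 CPM in resistant 2, and was not called (0.23 ± 0.1 and 0.19 ± 0.1). With the replicate number as a block, CHAF1A was called in resistant 1 of batch 2 (0.23, edgeR adjusted p = 0.0393), as it was by DESeq2 (adjusted p = 0.0318). UHRF1 (chromosome 19, 4903080 to 4962154, plus strand), which binds hemimethylated DNA and recruits the maintenance methyltransferase, had 203, 203 and 218 CPM in vehicle and 129.6, 118 and 121 CPM in resistant 1 libraries of batch 1. In batch 2, UHRF1 had 114, 144 and 116 CPM in vehicle, 43.9, 75.2 and 49.97 CPM in resistant 1 and 41.5, 56.8 and 48.7 CPM in resistant 2. Within each batch every resistant library was below every vehicle library, and UHRF1 fell (-0.68 ± 0.051, -1.14 ± 0.18 and -1.34 ± 0.19).

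**Figure D4:**
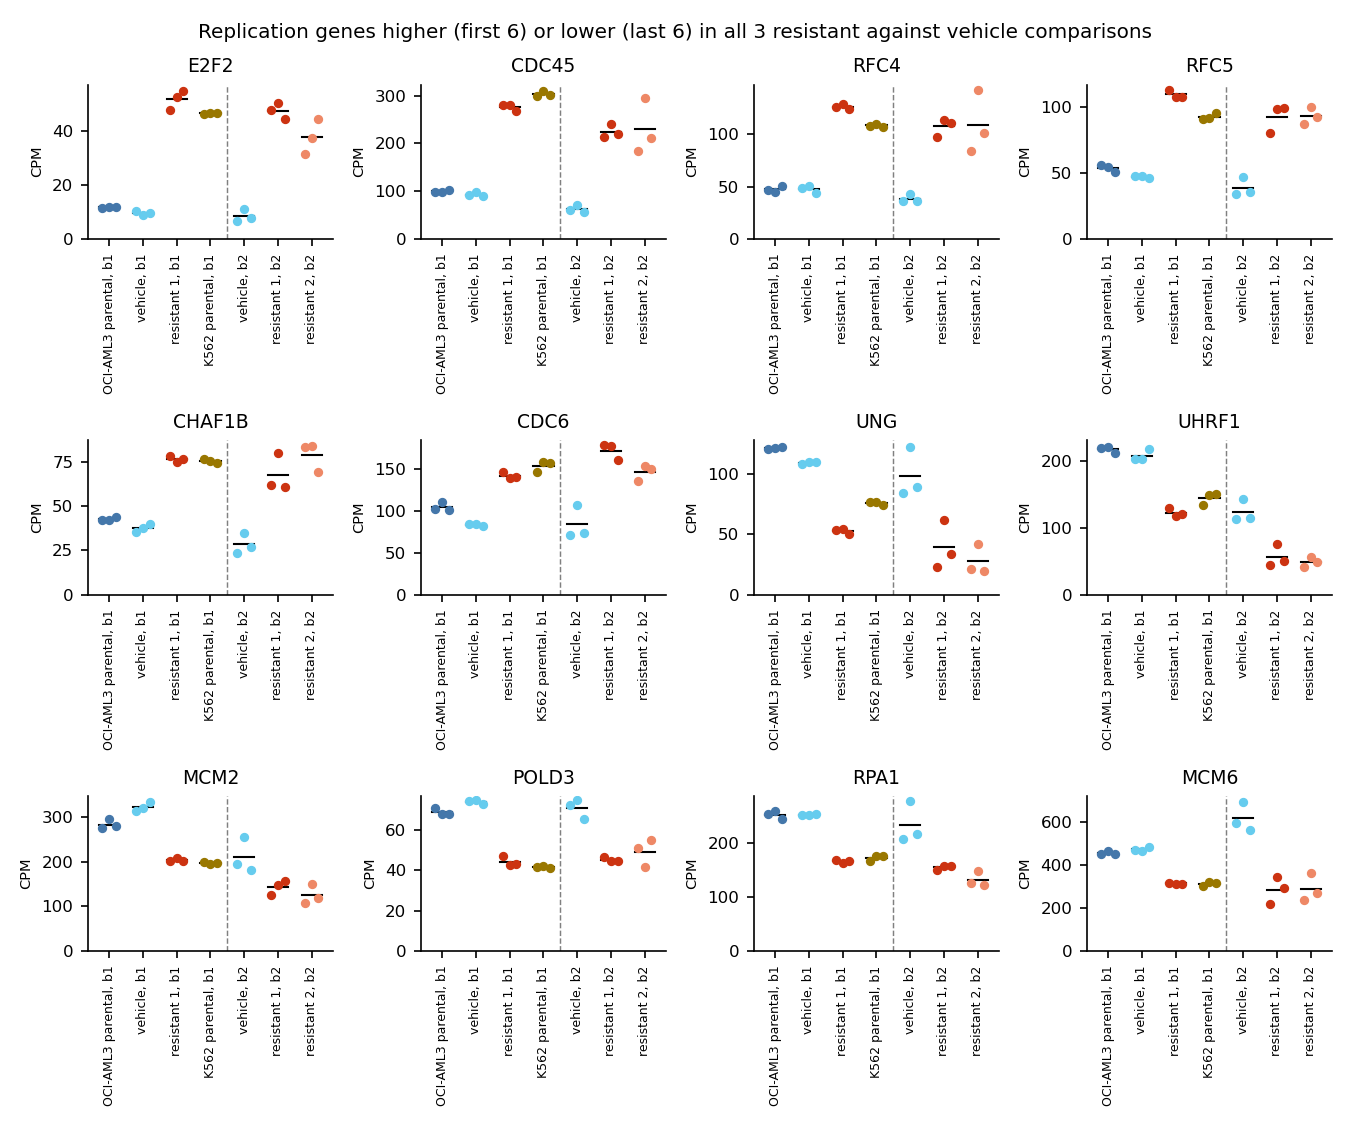
CPM in each library (points) and group mean (line) for the 6 genes higher and the 6 genes lower in all 3 resistant against vehicle comparisons with the greatest smallest change, where the dashed line separates the sequencing batches. In each panel the resistant points lie on 1 side of the vehicle points of their batch, as for E2F2, and for UNG library 2 of each batch 2 group is the highest.

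Of the 4 nucleotide synthesis genes, RRM1 and TYMS were called lower in resistant 2 than in resistant 1 of batch 2. RRM2 and TK1 were not called in that comparison, where 24.4% of all genes were called. RRM2, the regulated subunit of ribonucleotide reductase, had 175, 172 and 171 CPM in vehicle and 322, 307 and 323 CPM in resistant 1 libraries of batch 1, and rose (0.95 ± 0.046). In batch 2, RRM2 had 206, 394 and 233 CPM in vehicle, 232, 397 and 268 CPM in resistant 1 and 142, 329.7 and 170.2 CPM in resistant 2 libraries. The groups overlapped, and RRM2 was not called there (0.11 ± 0.36 and -0.38 ± 0.36). Without resistant 2 library 2, RRM2 was called lower in resistant 2 (-0.83). RRM1, the large subunit of that enzyme, had 282, 277 and 263 CPM in vehicle and 268, 254 and 256 CPM in resistant 1 libraries of batch 1, with no call. For batch 2 the values were 258, 355 and 268 CPM in vehicle, 327, 327 and 340.4 CPM in resistant 1 and 193, 244 and 155 CPM in resistant 2, and RRM1 fell in resistant 2 (-0.57 ± 0.16). TYMS, thymidylate synthase, had 184, 188 and 184 CPM in vehicle and 273, 277 and 265 CPM in resistant 1 libraries of batch 1. In batch 2, TYMS had 164, 264 and 176 CPM in vehicle, 292, 345 and 302 CPM in resistant 1 and 139.8, 235 and 127 CPM in resistant 2. TYMS rose in resistant 1 of both batches (0.62 ± 0.045 and 0.64 ± 0.23), although the batch 2 call was lost when 1 of several libraries was left out, and its value in resistant 2 was -0.27 ± 0.23, or -0.59 and called without resistant 2 library 2. TK1, thymidine kinase, was called in none of the 3, with log2 fold changes of -0.0021, -0.0063 and -0.11.

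Ratios of partners in a complex or family compare them within each library. The pairs given are a part of those computed, and not every pair parted the groups. A ratio of CPM depends on gene length, so only its difference between groups is read, with no test. MCM3 over MCM6 was 0.616 to 0.650 in vehicle, 1.25 to 1.26 in resistant 1 and 1.09 to 1.15 in K562 libraries of batch 1. It was 0.396 to 0.450 in vehicle, 0.851 to 1.11 in resistant 1 and 0.810 to 1.24 in resistant 2 libraries of batch 2. RFC4 over RFC3 was 0.447 to 0.547 in OCI-AML3 parental, 0.457 to 0.549 in vehicle, 1.44 to 1.54 in resistant 1 and 1.23 to 1.29 in K562 libraries. In batch 2 that ratio was 0.330 to 0.380 in vehicle, 1.35 to 1.52 in resistant 1 and 1.30 to 1.67 in resistant 2. RPA2 over RPA1 was 0.391 to 0.409 in vehicle and 0.782 to 0.821 in resistant 1 of batch 1; batch 2 gave 0.383 to 0.544 in vehicle and 0.926 to 0.981 in resistant 1 of batch 2. CHAF1B over CHAF1A was 0.261 to 0.290 in vehicle and 0.635 to 0.665 in resistant 1 of batch 1; batch 2 gave 0.316 to 0.444 and 0.712 to 0.909 in batch 2. E2F2 over E2F1 went from 0.205 to 0.265 in vehicle to 1.66 to 2.07 in resistant 1 of batch 1. In batch 2, E2F2 over E2F1 was 0.369 to 0.554 in vehicle, 2.08 to 2.78 in resistant 1 and 1.52 to 1.88 in resistant 2. CDC45 over MCM10 was 0.583 to 0.664 in vehicle and 2.03 to 2.24 in resistant 1 of batch 1; batch 2 gave 0.409 to 0.467 and 1.82 to 2.16 in batch 2. POLE2 over POLE set the resistant groups apart from each other, at 0.293 to 0.337 in resistant 1 and 0.149 to 0.209 in resistant 2 of batch 2. In K562 libraries POLE2 over POLE was 0.137 to 0.150, against 0.206 to 0.216 in resistant 1 of the same batch. Other pairs overlapped in batch 2. RRM2 over RRM1 was 0.798 to 1.11 in vehicle, 0.709 to 1.21 in resistant 1 and 0.733 to 1.35 in resistant 2. POLA1 over POLA2 was 1.94 to 2.04 in vehicle, 1.98 to 2.46 in resistant 1 and 1.60 to 2.58 in resistant 2.

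**Figure D5:**
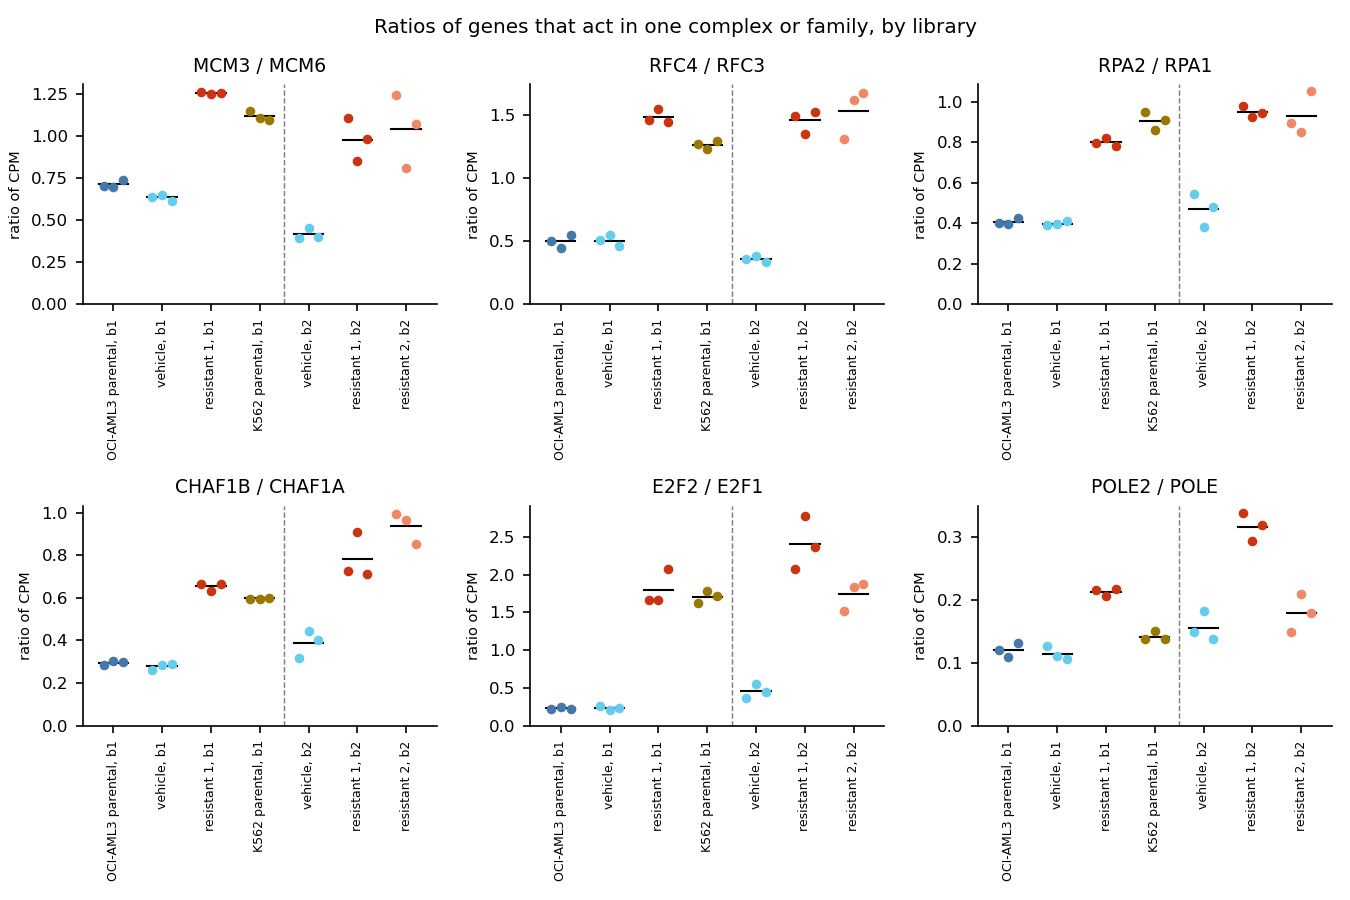
Ratio of the CPM of 2 genes that act in the same complex or family, in each library (points) with the group mean (line), where the dashed line separates the batches. MCM3/MCM6, RFC4/RFC3, RPA2/RPA1, CHAF1B/CHAF1A and E2F2/E2F1 are higher in every resistant and K562 library than in the OCI-AML3 parental and vehicle libraries, and POLE2/POLE in resistant 2 overlaps with vehicle.

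Levels between genes were compared only as CPM per kilobase of the canonical transcript. In vehicle libraries of batch 1 the highest of the 47 were MCM7 at 254 ± 9.61 CPM per kilobase (SD, n = 3) and PCNA at 212 ± 6.59 CPM per kilobase. E2F2 was the lowest there, at 1.84 ± 0.160 CPM per kilobase. In resistant 1 of the same batch E2F2 was at 10.0 ± 0.679 CPM per kilobase, next to E2F1 at 10.8 ± 0.961 CPM per kilobase and within its spread by this length. The union of all annotated exons is longer for E2F2 (5462 against 5196 bases) but not for E2F1 (2690 bases). By that union E2F2 lies lower against E2F1. CDC45 went from 49.2 ± 2.32 CPM per kilobase and rank 19 of 47 in vehicle to 147 ± 3.93 CPM per kilobase and rank 4 in resistant 1. By the union of all annotated exons that rank was 6. MCM6 went from 126 ± 2.18 CPM per kilobase and rank 4 to 83.5 ± 0.743 CPM per kilobase and rank 12.

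K562 against OCI-AML3 parental libraries compares the 2 parental lines, both with treatment labelled N/A. Of the members, 25 were higher and 18 lower in K562, where 85.1% of 13883 genes were called (42.6% higher and 42.5% lower). The median absolute log2 fold change was 0.53 over members and 0.83 over all genes, 4 members (all higher) and 44.1% of all genes had a called change of at least 1, and libraries did not overlap for 44 members and 85.6% of all genes. E2F2 (2.00 ± 0.076), CDC45 (1.61 ± 0.051) and RFC4 (1.19 ± 0.06) were the highest, with edgeR adjusted p at or under 7.5e-14. E2F1 (-0.87 ± 0.071), MCM5 (-0.81 ± 0.052) and POLD3 (-0.73 ± 0.06) were the lowest. In OCI-AML3 parental libraries E2F2 had 11.4, 11.8 and 11.9 CPM, CDC45 had 98.2, 98.9 and 103 CPM and RFC4 had 47.1, 44.7 and 50.7 CPM against 108, 110.4 and 107 CPM in K562, none of which overlapped with K562. MCM5 had 236, 239.9 and 256 CPM and E2F1 50.3, 47.1 and 52.1 CPM in OCI-AML3 parental libraries. Of the 37 members called both here and in resistant 1 against vehicle of batch 1, which compare different libraries, 37 had the same sign. That share was not counted over all genes, so it is not read as particular to the members. Calls for CCNE1, MCM3, MCM7, POLE and RFC3 in K562 were lost under 1 or more of the alternatives.

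Resistant 1 against K562 parental in batch 1 gave smaller differences. Here 9 members were higher and 18 lower in resistant 1, and 59.8% of 13006 genes were called (31.3% higher and 28.5% lower). The median absolute log2 fold change was 0.13 over members and 0.25 over all genes, and a called change of at least 1 was found for 0 members and 9.60% of all genes. CDT1 was the highest (0.52 ± 0.055), with 130.4, 149.7 and 143 CPM in resistant 1 and 93.9, 99.5 and 105 CPM in K562 libraries. POLE2 (0.35 ± 0.063) and RFC5 (0.26 ± 0.048) followed. UNG was the lowest (-0.51 ± 0.054), and CDK2 (-0.40 ± 0.046) and TYMS (-0.36 ± 0.04) followed, with 345, 352 and 364 CPM of TYMS and 142, 144 and 145 CPM of CDK2 in K562. The libraries did not overlap for 30 members and 63.7% of all genes. E2F2 differed by 0.17 ± 0.06 and CDC45 by -0.12 ± 0.041, calls that were each lost under 1 or more alternatives.

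Resistant 2 against resistant 1 in batch 2 asks how the resistant replicates differed. By edgeR 0 members were higher in resistant 2 and 6 were lower, where 24.4% of 15218 genes were called (12.4% higher and 11.9% lower). DESeq2 called 1 member higher, and 1 member was higher and 9 lower at an unadjusted p under 0.05. A called change of at least 1 was found for 0 members and 9.30% of all genes, and libraries did not overlap for 13 members and 37.6% of all genes. TYMS was the lowest (-0.91 ± 0.23, adjusted p = 0.0125), with the libraries of resistant 2 all below those of resistant 1. POLE2 (-0.88 ± 0.26), RRM1 (-0.75 ± 0.16), ORC1 (-0.62 ± 0.14), GINS1 (-0.60 ± 0.18) and PRIM1 (-0.58 ± 0.17) were also lower. Calls for TYMS, POLE2, GINS1 and PRIM1 were lost when single libraries were left out. Without the libraries numbered 2, 4 members were higher and 17 lower. With the replicate number as a block, 13 members were called in place of 6.

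Vehicle against OCI-AML3 parental cells in batch 1 compares cells labelled DMSO with cells whose treatment is labelled N/A. Time and conditions of culture are not given for either, so their part cannot be told apart from that of DMSO. Most members were slightly lower in vehicle: 27 fell and 3 rose, where 18.3% of 14505 genes were lower and 18.7% higher (37.0% called). Sizes were small, with a median absolute log2 fold change of 0.19 over both the members and all genes, and a median signed value of -0.17 against 0. A called change of at least 1 was found for 0 members and 4.67% of all genes, and libraries did not overlap for 35 members and 46.1% of all genes. All 4 nucleotide synthesis and all 5 G1/S control genes fell. CCNE2, a cyclin E gene, had 60.5, 59.0 and 53.8 CPM in parental and 38.8, 34.7 and 37.0 CPM in vehicle libraries and fell the most (-0.68 ± 0.066, edgeR adjusted p = 5.07e-09). TYMS had 280.4, 281 and 291 CPM in parental libraries and fell (-0.64 ± 0.045), as did RRM2, with 246, 259 and 247 CPM in parental libraries (-0.57 ± 0.046). The G2 and M phase list, which holds no member of this set, moved with them: 14 of its 20 genes were lower and 0 higher, and it summed to 4867 to 5127 CPM in parental and 4178 to 4312 CPM in vehicle. CDT1 went the other way, with 81.1, 80.0 and 91.5 CPM in parental and 123, 134 and 137 CPM in vehicle libraries (0.61 ± 0.062). RFC1 (0.22 ± 0.05) and MCM2 (0.16 ± 0.046) were also higher. Calls for CDC45, MCM7, ORC1 and RRM1 were lost under another scaling or test. A share of dividing cells was not measured, and its part in these differences was not tested.

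Whether the change of resistant 1 differed between batches was tested with an interaction term. Its batch 2 change was called above that of batch 1 for E2F1, CDK2 and CHAF1A and below it for MCM3, MCM6, RFC3 and POLA1, where 33.2% of 15209 genes were called (15.0% above and 18.2% below). A called difference of at least 1 was found for 0 members and 10.6% of all genes.

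The other genes of the pathway were taken as fixed lists. Over all genes, 86.0% were called in resistant 1 of batch 1, 75.7% in resistant 1 of batch 2 and 76.1% in resistant 2. The list counts are descriptions beside those shares, with no test. Of 30 other replication factors, 18 rose and 7 fell in resistant 1 of batch 1, 15 and 5 in resistant 1 of batch 2, and 12 and 5 in resistant 2. ORC3, an origin recognition subunit, rose by 1.85 ± 0.061, 1.31 ± 0.11 and 1.45 ± 0.11, and GMNN, the geminin inhibitor of CDT1, by 1.72 ± 0.058, 1.52 ± 0.12 and 1.45 ± 0.12. GMNN had 46.3, 50.2 and 46.3 CPM in vehicle and 150.1, 149 and 147 CPM in resistant 1 libraries of batch 1. MTBP, a partner of the origin-firing factor TICRR, changed by -1.32 ± 0.075, -1.26 ± 0.12 and -1.32 ± 0.12, and POLE4, a small subunit of polymerase epsilon, by -1.06 ± 0.098, -1.13 ± 0.16 and -1.12 ± 0.16. Of 18 other nucleotide supply genes, 7 rose and 10 fell in batch 1, 2 and 10 in resistant 1 of batch 2, and 2 and 13 in resistant 2. SAMHD1, which breaks down deoxynucleotides, changed by -2.24 ± 0.059, -3.45 ± 0.13 and -3.46 ± 0.13, and IMPDH2, of guanine nucleotide synthesis, by -0.92 ± 0.044, -1.12 ± 0.13 and -1.53 ± 0.13. GMPS, also of guanine nucleotide synthesis, rose by 1.02 ± 0.047, 0.77 ± 0.12 and 0.56 ± 0.12.

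Of 28 other E2F, RB and G1 control genes tested, 12 rose and 12 fell in batch 1, 10 and 11 in resistant 1 of batch 2, and 11 and 10 in resistant 2. The shares over all genes were again 86.0%, 75.7% and 76.1% in this order. CCND2, cyclin D2, had 0.0559, 0.147 and 0.205 CPM in vehicle, 141, 134 and 136 CPM in resistant 1 and 139, 150.3 and 137 CPM in K562 libraries of batch 1, and rose (10.01 ± 0.14). CDKN1C, a kinase inhibitor, also rose (4.97 ± 0.28). CDKN2A, whose products hold back cyclin D kinases and stabilize p53, had 253 counts over the vehicle libraries of batch 1 and 358 over those of batch 2. It had 0 counts in all 9 resistant and all 3 K562 libraries. CDKN2B, its neighbour, had 90 counts in vehicle of batch 1 and 0 in the same 12 libraries. Both were called lower in each resistant against vehicle comparison, and no fold is given against groups at 0. Of 10 paralogs tested in batch 1, 5 rose and 5 fell: CDK1, the mitotic kinase, rose (1.32 ± 0.049) and UHRF2, the paralog of UHRF1, fell (-1.83 ± 0.056). Of 20 G2 and M phase genes, 11 rose and 7 fell in batch 1, 11 and 1 in resistant 1 of batch 2, and 5 and 3 in resistant 2. AURKA, a mitotic kinase, rose by 1.05 ± 0.051, 1.10 ± 0.15 and 0.88 ± 0.15. MKI67, a proliferation marker, fell in batch 1 (-0.59 ± 0.045) and was not called in batch 2 (0.063 ± 0.14 and 0.00026 ± 0.14). UBE2C, of the ubiquitin machinery of mitotic exit, had 114, 119 and 124 CPM in vehicle, 0.426, 0.698 and 0.473 CPM in resistant 1 and 1.10, 0.682 and 0.316 CPM in K562 libraries of batch 1. In batch 2, UBE2C had 67.7, 78.5 and 64.9 CPM in vehicle, 0.433, 0.300 and 0.0978 CPM in resistant 1 and 0.190, 0.270 and 0.149 CPM in resistant 2.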

How the data were processed

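The authors deposited gene counts, 1 table per sequencing batch, as whole numbers for each gene symbol, without normalization. Per the labels' protocols, total RNA was isolated with a Qiagen RNeasy kit and made into strand-specific Roche Kapa mRNA libraries, and paired reads were sequenced on a NovaSeq6000. Alignment to hg38 and analysis in the VIPER pipeline with DESeq2 1.22.1 are stated per the submitters' processing notes. The sources used here do not give the aligner's version, the annotation or whether strand was used, so overlapping or antisense genes may share counts.

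Counts were fitted with edgeR 4.0.16 in R 4.3.3 (TMM, filterByExpr, robust quasi-likelihood F tests, 2-sided), with Benjamini-Hochberg adjustment over all genes tested and a call at adjusted p under 0.05. A first fit held parental, vehicle and resistant 1 of OCI-AML3 in batch 1, and another all groups of batch 2. K562 was fitted with OCI-AML3 parental and with resistant 1 in separate fits, and an interaction term compared the batches. Printed errors after ± are standard errors of the log2 fold change, computed as its size over the square root of F, unless SD is named. CPM were scaled over all libraries of a batch, so the log2 ratio of group means can differ slightly from the fitted fold change. Lengths and positions came from GENCODE v44 on hg38, and promoter windows from RefSeq. The fits were tested on simulated counts.

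The members and gene lists were chosen with earlier results of these data known. Values in each library are given for members called with the same sign in all 3 resistant against vehicle comparisons (6 in each direction, ranked by the smallest of the 3 changes), for the 3 highest and 3 lowest called members of each comparison, and for the member with the highest mean level of each role. Of other lists, the 2 highest and 2 lowest called genes of resistant 1 in batch 1 were available. No pair of libraries in a group agreed within sampling noise (chi-square per degree of freedom 1.81 to 7.18 in batch 1 and 20.8 to 84.5 in batch 2). The labels do not say what a replicate number shares. Deviations of same-numbered vehicle and resistant 1 libraries of batch 2 correlated over all genes at 0.143, 0.127 and 0.100, so blocked values of members are given for that comparison. For the other batch 2 comparisons the block is given as an alternative, by counts. Alternatives were DESeq2 1.42.0, RLE normalization, no low-count filter, only the groups compared, a replicate block, a fold threshold, each library left out and, chosen after seeing the data, batch 2 without its libraries numbered 2.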

Additional observations from a re-analysis of the deposited data

Results flagged for a closer look

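For 7 members the change of resistant 1 against vehicle differed between sequencing batches, by the interaction term of the edgeR fit of 12 libraries (adjusted p under 0.05, where 33.2% of 15209 genes were called, 15.0% higher and 18.2% lower in batch 2). Given as the batch 2 minus the batch 1 log2 fold change, MCM6, an MCM helicase subunit, differed by -0.6276, with log2 fold changes of -0.52 in batch 1 and -1.13 in batch 2. POLA1, of polymerase alpha, differed by -0.5231, RFC3, of the clamp loader, by -0.4821 and MCM3 by -0.4085. E2F1 differed by 0.5087, CDK2 by 0.4766 and CHAF1A, of chromatin assembly, by 0.3373. POLA1 and MCM3 rose in batch 1 and had values of -0.01 and 0.079 in batch 2. RFC3 fell in batch 2 and had a value of -0.065 in batch 1. The MCM3 call was lost with DESeq2 and with RLE normalization, and the value was -0.25 without vehicle library 2 of batch 2 and -0.20 without the libraries numbered 2. CDK2 differed by 0.77 without those libraries. Calls for E2F1 and CHAF1A were lost without resistant 1 library 3 of batch 1. The batches also differed in depth (14.1 to 21.1 M counts against 30.7 to 51.3 M) and in the spread within groups, and their part in these differences was not tested.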

How the results depend on the processing

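Of 5264 values of single members under the alternatives, 4939 kept their direction and side of the threshold, 169 were no longer called, 154 became called and 2 reversed. Those were the batch differences of TYMS (0.26) and TK1 (0.32) without the libraries numbered 2 of batch 2, which were not called with all libraries. Requiring an absolute log2 fold change of 1 left 8 members higher and 0 lower in resistant 1 of batch 1, 8 and 3 in resistant 1 of batch 2, 5 and 3 in resistant 2, 4 and 0 in K562 against parental OCI-AML3, and 0 in either direction in the other comparisons. The comparisons of resistant with vehicle kept counts within 1.5 times of the reported ones under all other alternatives, except that members lower in resistant 2 numbered 10 to 19 with single libraries left out. Counts moved by more than that for resistant 2 against resistant 1 and for the batch difference. In the former, the 0 higher members became 1 with DESeq2, 1 with no low-count filter, 1 with only the groups compared, and 0 to 2 with single libraries left out, and its 6 lower members became 2 to 13. Without the libraries numbered 2, 4 were higher and 17 lower. The batch difference of resistant 1 had 1 to 7 members higher and 3 to 11 lower with single libraries left out, and 17 and 8 without the libraries numbered 2. With the replicate block, resistant 2 against resistant 1 had 2 members higher and 11 lower, and the batch difference had 7 lower. Same-numbered libraries correlated at -0.11 to 0.083 in batch 1 and 0.035 to 0.29 in batch 2. The numbers were taken to pair vehicle with resistant 1 of batch 2, where each of the 3 pairs was over 0.1, and in no other comparison. That cut does not decide the pairing, since libraries of unlike number correlated at -0.26 to 0.19 in batch 2. Same-numbered resistant 2 and resistant 1 libraries correlated at 0.146, 0.288 and 0.094, so only the value of 0.094 kept that comparison out. For vehicle and resistant 2 the values were 0.035, 0.114 and 0.051. In resistant 2 against vehicle the block called 33 members in place of 27, adding CCNE2, TYMS, RRM2, MCM7, POLD1 and MCM10. The block ended no call of resistant against vehicle. Counting noise was smaller than the spread between libraries in both batches. The cause of these changes was not tested.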
